A study of Mus musculus with 4 samples.

Results

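The genes described here repair broken and crosslinked DNA or signal that it is damaged, and they were compared between parthenogenetic haploid and parthenogenetic diploid mouse embryonic stem cells (ESCs). The list was given as 44 genes in 4 roles: 10 Fanconi genes, 20 genes of homologous recombination, 5 genes of end joining and 9 checkpoint genes. A gene was found on the arrays through the accession of its probe, and where a gene had several probes the brightest stood for it. Of the 44 genes 43 were measured, among 17963 features tested in all. No probe matched Rad51c, so it is not described further. The gene listed as Claspn, which encodes the checkpoint mediator claspin, was found under the symbol Clspn.

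The haploid group held parthenogenetic haploid ESC lines 1 and 2, and the diploid group held parthenogenetic diploid ESC lines 1 and 2. All 4 samples were female and carried only maternal chromosomes, since parthenogenetic embryos start from an egg without a sperm. Haploid ESCs hold a single chromosome set and tend to become diploid in culture. The strain, the passage, the feeder cells and any sort for DNA content before RNA extraction are not given in the sources used here, so the share of diploid cells in the haploid samples is unknown. The series was built around the passage from G2 into mitosis in haploid ESCs. RNA of each sample went on an Agilent array of its own, read in a single colour. A feature was tested where the scanner software marked it as well above background on both haploid arrays or on both diploid arrays.

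Double-strand breaks in replicated DNA are repaired largely by homologous recombination. The MRE11, RAD50 and NBN complex, helped by RBBP8 (also called CtIP), begins to trim the ends, EXO1 trims them further, and BRCA1 with BARD1, PALB2 and BRCA2 prepares the end for copying from the sister chromatid. End joining instead ligates the ends directly: the Ku subunits XRCC5 and XRCC6 hold them, the kinase PRKDC aligns them, and LIG4 with XRCC4 seals them. The Fanconi proteins act on crosslinks between the strands, where a core complex attaches ubiquitin to FANCD2 and FANCI. ATM senses breaks and ATR, with ATRIP and TOPBP1, senses single-stranded DNA. They activate the kinases CHEK2 and CHEK1, and claspin carries the signal from ATR to CHEK1, which holds cells back from mitosis. ESCs replicate their DNA for much of the cell cycle and are known to rely on recombination. A haploid cell has no homologous chromosome to copy from, and it has a sister chromatid only after replication.

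Promoters were set beside the expression values because genes of replication and repair are known targets of the E2F factors, which act at the entry into S phase, and of NF-Y, which binds the letters CCAAT. RefSeq promoter windows (build GRCm38.p6, from 250 bases before the start to 50 after it) were found for 34 of the 44 genes, in 38 entries. The E2F words TTTCCCGC, TTTGGCGC, TTTCGCGC and TTTGCCGC were searched on both strands. At least 1 of them stood in 10 of the 38 entries (26.3%), against 2.26% of all 32851 promoters in the table. CCAAT, on either strand, stood in 60.5% of the entries of these genes and in 37.4% of all promoters. The windows of 5 genes are printed, 5' to 3' on the strand of the gene, with E2F and CCAAT words in capitals in whichever strand they lie. No E2F word overlapped a CCAAT word in them. Bard1 (chr1:71102923-71103222, minus strand) and Clspn (chr4:126556730-126557029, plus strand) are shown as genes with lower signal in haploid cells and an E2F word. Brip1 (chr11:86201144-86201443, minus strand) and Atm (chr9:53536622-53536921, minus strand) are shown as genes with lower signal and no E2F word, and Xrcc6 (chr15:82016119-82016418, plus strand) as a gene with an E2F word and higher signal.
Bard1: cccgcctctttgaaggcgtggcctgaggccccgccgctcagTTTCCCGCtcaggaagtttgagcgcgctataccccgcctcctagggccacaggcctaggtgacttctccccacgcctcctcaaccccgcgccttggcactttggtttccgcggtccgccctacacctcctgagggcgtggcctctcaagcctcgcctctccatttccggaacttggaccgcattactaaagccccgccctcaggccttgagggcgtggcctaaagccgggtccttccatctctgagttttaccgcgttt
Brip1: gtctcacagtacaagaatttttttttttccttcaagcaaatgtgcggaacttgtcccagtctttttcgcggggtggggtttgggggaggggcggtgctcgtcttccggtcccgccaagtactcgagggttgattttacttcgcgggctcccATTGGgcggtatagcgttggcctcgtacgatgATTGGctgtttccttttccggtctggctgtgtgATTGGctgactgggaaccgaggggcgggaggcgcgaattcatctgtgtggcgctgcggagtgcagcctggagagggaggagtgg
Atm: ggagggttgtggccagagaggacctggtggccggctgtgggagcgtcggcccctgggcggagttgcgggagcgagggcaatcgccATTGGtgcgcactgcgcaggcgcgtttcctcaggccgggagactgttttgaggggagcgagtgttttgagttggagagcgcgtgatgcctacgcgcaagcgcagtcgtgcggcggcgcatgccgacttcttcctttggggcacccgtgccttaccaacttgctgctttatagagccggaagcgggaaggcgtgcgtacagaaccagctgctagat
Clspn: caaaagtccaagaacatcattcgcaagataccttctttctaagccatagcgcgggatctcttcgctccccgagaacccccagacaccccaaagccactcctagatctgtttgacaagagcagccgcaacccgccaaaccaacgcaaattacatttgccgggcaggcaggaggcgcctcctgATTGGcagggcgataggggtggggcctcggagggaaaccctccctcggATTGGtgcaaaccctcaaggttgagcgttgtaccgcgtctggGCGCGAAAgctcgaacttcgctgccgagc
Xrcc6: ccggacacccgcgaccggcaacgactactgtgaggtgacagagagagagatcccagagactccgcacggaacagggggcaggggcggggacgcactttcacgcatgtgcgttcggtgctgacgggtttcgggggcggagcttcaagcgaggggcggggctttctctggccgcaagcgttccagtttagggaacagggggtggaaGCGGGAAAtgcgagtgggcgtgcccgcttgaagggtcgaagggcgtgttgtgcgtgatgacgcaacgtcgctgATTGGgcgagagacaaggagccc
In Bard1 the E2F word began at base -209 relative to the start, in Xrcc6 at base -46 and in Clspn at base 22 downstream of it. Brip1 held 3 CCAAT words, Clspn 2, Xrcc6 and Atm 1 each, and Bard1 held 0. Of the measured genes with a promoter in the table, 8 had an E2F word (Fancg, Brca2, Bard1, Xrcc6, Chek2, Mdc1, Topbp1 and Claspn). Their median log2 difference, haploid minus diploid, was -0.21, with 6 of 8 below 0. The other 25 had a median of -0.09, with 19 of 25 below 0. Genes with and without the word were thus found on both sides of 0. A match is a description of these letters and no sign of binding, and a window without a match says only that these letters are not in it.

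No gene of the 43 passed the test between haploid and diploid cells, but most of them had lower signal in the haploid lines. Values are log2 of a probe's signal minus the 75th percentile of its array, so a value of 0 lies at that percentile and each unit is a doubling. Differences are haploid minus diploid, given with the standard error (SE) of the limma fit, n = 2 arrays per group. The difference lay below 0 for 34 of the 43 genes, against 46.8% of all features, and above 0 for 9. The median over the 43 genes was -0.19, against 0.02 over all features. For 22 genes (51.2%) both haploid values lay below both diploid values, against 20.9% of all features. The opposite order was seen for 2 genes, Xrcc3 and Xrcc6, against 26.0% of all features. For the other 19 genes the groups overlapped. With normexp background correction on all spots, the difference lay below 0 for 22 of the 43 genes, against 54.2% of all features.

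At a Benjamini-Hochberg adjusted p under 0.05, limma called 20 features (0.111%), 0 of them among the 43 genes, whose smallest adjusted p was 0.316. At an unadjusted p under 0.05 there were 6 genes with lower signal in haploid cells (Xrcc2, Atm, Bard1, Brip1, Chek1 and Brca1), against 4.92% of all features, and 0 with higher signal, against 6.79% of all features. With 2 arrays per group an exact permutation test of a single gene cannot reach 0.05, and a p above the threshold does not show that the groups were alike. In bulk samples such as these, fewer cells that express a gene and less RNA per cell cannot be told apart. Since 0.2 ug of RNA was labelled from each sample and each array was scaled to its own percentile, a change in total RNA per cell was not measured either.

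**Figure D1:**
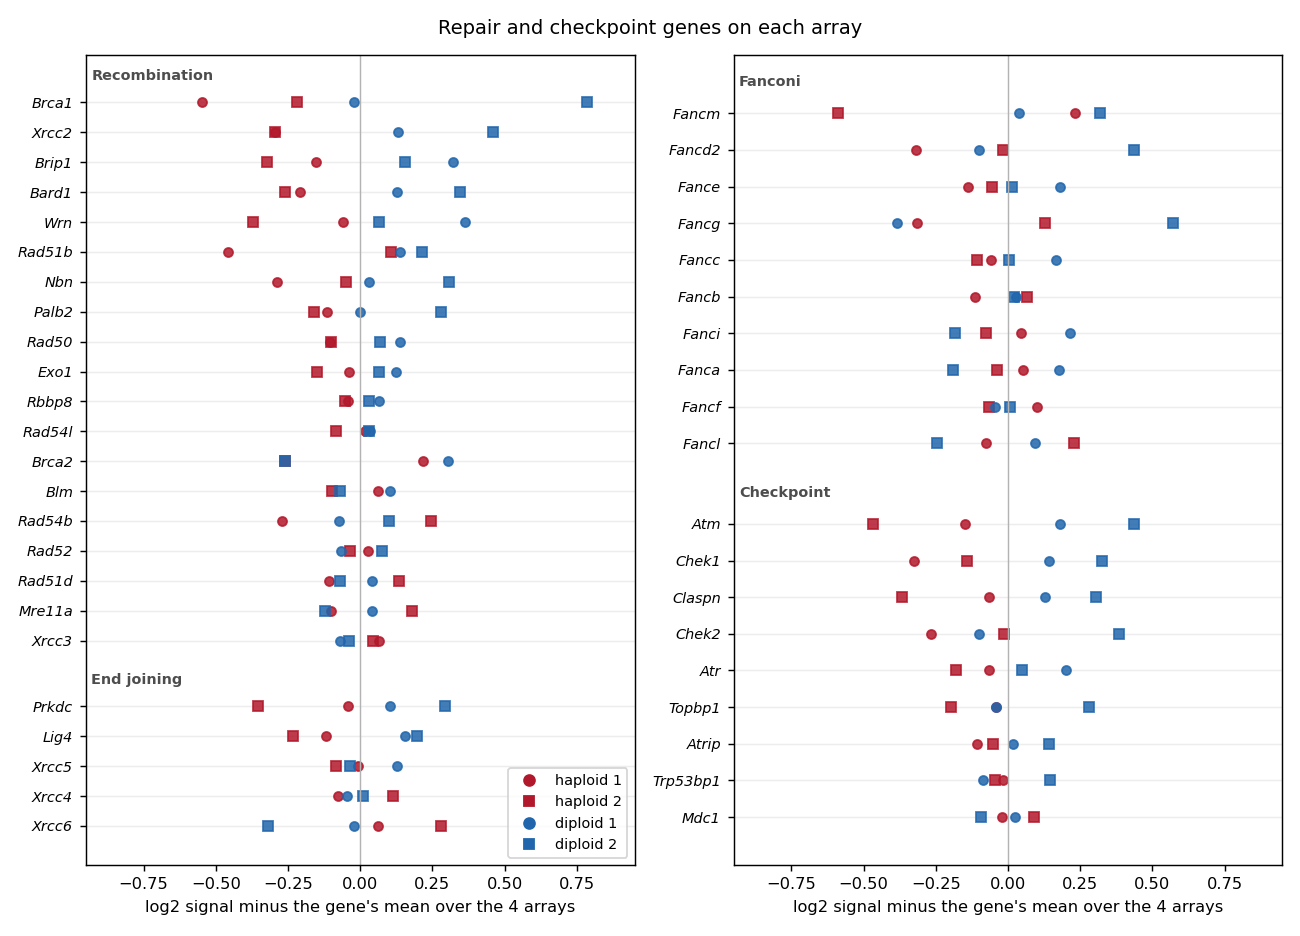
Signal of the 43 measured genes on each array. The horizontal axis gives a gene's log2 signal minus its mean over the 4 arrays, red points are haploid and blue points diploid lines, circles are line 1 and squares line 2, and genes are ordered by their difference within each role. Red points lie left of blue points for 22 genes, while Xrcc3 and Xrcc6 show the opposite order.

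Of 19 measured recombination genes 16 lay below 0, with a median of -0.19. Both haploid values lay below both diploid values for 12 of them, against 20.9% of all features, and above for 1, against 26.0%. That gene was Xrcc3, a recombination factor with a difference of 0.11. None passed the adjusted threshold. At an unadjusted limma p under 0.05, 0 had higher signal in haploid cells, against 6.79% of all features. At that threshold 4 had lower signal, against 4.92% of all features. These 4 were Brca1, Xrcc2, Brip1 and Bard1.

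Xrcc2, a mediator of recombination, read -1.27 and -1.27 in haploid lines 1 and 2, against -0.84 and -0.51 in diploid lines 1 and 2. The haploid lines matched each other closely and lay below both diploid lines. The difference was -0.59 ± 0.19 (unadjusted p = 0.0190, adjusted p = 0.316). The dimmer probe of Xrcc2 differed by only -0.10. Bard1, the partner that keeps BRCA1 stable, read 1.74 and 1.69 in haploid lines, against 2.08 and 2.29 in diploid lines. The groups did not overlap, and the difference was -0.47 ± 0.18 (adjusted p = 0.384). Its other probes gave -0.40 and -0.11. Brip1, a helicase that binds BRCA1 and is also counted among the Fanconi genes, read -2.35 and -2.52 in haploid lines, against -1.88 and -2.05 in diploid lines. The gap between the groups was wider than the gap within either, with a difference of -0.47 ± 0.18 (adjusted p = 0.384). For Brip1 the difference was -0.22 with normexp background correction that left out 2 spots of high local background.

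Brca1 read -4.29 and -3.96 in haploid lines, against -3.77 and -2.96 in diploid lines. Both haploid lines lay below both diploid lines, but diploid line 2 stood well above the other 3. The difference was -0.77 ± 0.30, or 1.70-fold lower in haploid cells (unadjusted p = 0.0398, adjusted p = 0.398). It was -1.17 without diploid line 1, -0.36 without diploid line 2 and -0.24 with normexp background correction that left out 2 spots of high local background. Brca1 had the lowest value of the 43 genes as reported but not in the last 2 of these settings. Other genes stood lower there, among them Brip1 at -0.56 without diploid line 2 and Bard1 at -0.49 with that correction. Without haploid line 1 Brca1 stood at -0.60 and Atm at -0.78. Brca1 had a single dim probe, near the lower end of the signal, although it was well above background on all 4 arrays, as were the other measured genes.

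The other recombination genes are given by value. Wrn, a helicase of the RecQ family, differed by -0.43 ± 0.20 (adjusted p = 0.474). Its other probe, which was too dim to pass the filter, lay on the same side. In the alternative settings Wrn came as near to 0 as -0.13. Rad51b, a further mediator of recombination, differed by -0.35 ± 0.23, with -0.07 without haploid line 1 and -0.63 without haploid line 2. Palb2, which bridges BRCA1 and BRCA2, differed by -0.28 ± 0.18, and its other probe by -0.53. Of these 3 genes Wrn, Rad51b and Palb2 all had both haploid values below both diploid values. The end-trimming complex gave values on both sides of 0. Nbn differed by -0.34 ± 0.19 and Rad50 by -0.21 ± 0.16 (-0.35 on its other probe), both without overlap, whereas Mre11a differed by 0.08 ± 0.19 with overlapping groups. Exo1, the nuclease that extends the trimmed end, differed by -0.19 ± 0.17, and Rbbp8 by -0.09 ± 0.16. Smaller values were those of Brca2, which acts after BRCA1 and PALB2, at -0.05 ± 0.27, Rad52 at -0.01 ± 0.17, the motor proteins Rad54l at -0.07 ± 0.17 and Rad54b at -0.03 ± 0.22, the helicase Blm at -0.03 ± 0.18 and the mediator Rad51d at 0.03 ± 0.18.

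Of the 9 checkpoint genes 8 lay below 0, with a median of -0.25 that was -0.40 without diploid line 1 and -0.10 without diploid line 2. Both haploid values lay below both diploid values for 6 of the 9, against 20.9% of all features, and above for 0, against 26.0%. Atm read -1.33 and -1.64 in haploid lines, against -0.996 and -0.74 in diploid lines. Both haploid lines lay below both diploid lines by more than either pair differed within itself, with a difference of -0.62 ± 0.20, 1.53-fold lower in haploid cells (unadjusted p = 0.0205, adjusted p = 0.323). A separate probe of Atm gave -0.61, nearly the same value. Chek1, the kinase that ATR activates, read -4.24 and -4.05 in haploid lines, against -3.77 and -3.59 in diploid lines. The groups were apart, with a difference of -0.47 ± 0.18 (unadjusted p = 0.0392, adjusted p = 0.397), but the probe was in the dimmest of 10 equal classes of features by signal.

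Claspn read -2.36 and -2.66 in haploid lines, against -2.17 and -1.99 in diploid lines. Haploid line 2 was the lowest and the groups did not overlap, with a difference of -0.43 ± 0.19 (adjusted p = 0.447). Atr read 1.96 and 1.85 in haploid lines, against 2.23 and 2.08 in diploid lines, and here too the groups were apart, by a smaller difference of -0.25 ± 0.17 (adjusted p = 0.591). Its partners stood at -0.16 ± 0.17 for Atrip and -0.24 ± 0.19 for Topbp1. Chek2, the kinase downstream of ATM, differed by -0.28 ± 0.23 with overlapping groups. The adaptor proteins that gather at breaks lay nearest to 0, Trp53bp1 at -0.06 ± 0.18 and Mdc1 at 0.07 ± 0.17, and the dimmer probe of Trp53bp1, which did not pass the filter, gave 0.33. As reported, the kinases and their activators therefore all lay below 0, and the 2 adaptors lay on either side of it. With normexp on all spots Atr stood at 0.01, Atrip at 0.04 and Topbp1 at 0.02. Atm, Chek1, Chek2 and Claspn stayed below 0 there. Chek2 came as near to 0 as -0.04 with 1 array left out.

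**Figure D2:**
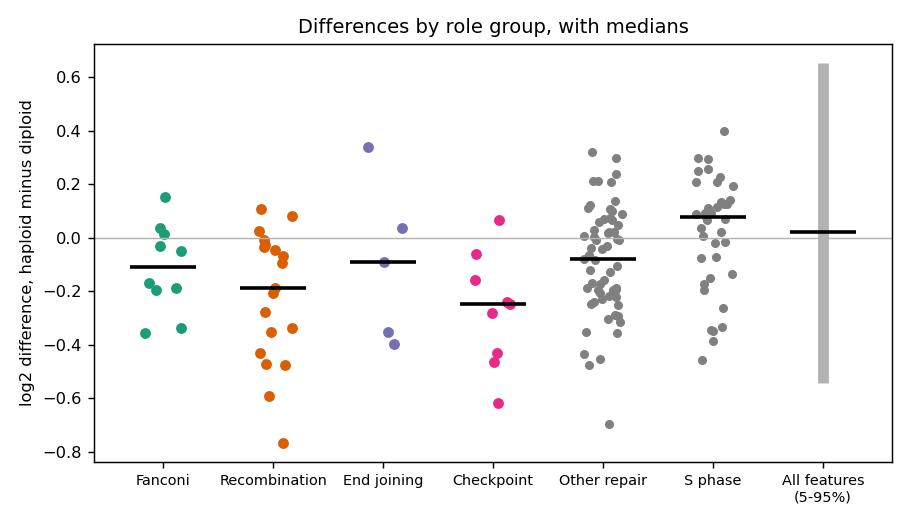
Log2 difference, haploid minus diploid, of each gene by role, with black bars at the medians. Other repair genes, S phase genes and all features stand to the right, the last as a grey bar over their percentiles 5 to 95. The medians are -0.11 (Fanconi), -0.19 (recombination), -0.09 (end joining), -0.25 (checkpoint), -0.08 (other repair) and 0.08 (S phase). Without diploid line 2 the checkpoint median is -0.10 and the recombination median -0.20.

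End joining showed both directions. Of its 5 genes 3 lay below 0, with a median of -0.09, and 0 passed the test. Lig4, the ligase, read -1.10 and -1.22 in haploid lines, against -0.83 and -0.79 in diploid lines. The groups did not overlap, and the difference was -0.35 ± 0.17 (adjusted p = 0.475). Prkdc, the DNA-dependent protein kinase, read -1.40 and -1.71 in haploid lines, against -1.25 and -1.06 in diploid lines. The difference was -0.40 ± 0.19 (adjusted p = 0.484), again without overlap. Xrcc6, which encodes Ku70, read 4.64 and 4.86 in haploid lines, against 4.56 and 4.26 in diploid lines. The groups were apart, and the difference was 0.34 ± 0.19 or 1.27-fold higher in haploid cells (adjusted p = 0.527). Its partner Xrcc5, which encodes Ku80, lay on the other side of 0, with 3.46 and 3.38 in haploid lines, against 3.60 and 3.43 in diploid lines. Those groups overlapped, at a difference of -0.09 ± 0.17 (adjusted p = 0.847). Xrcc4, the partner of the ligase, lay at 0.04 ± 0.17.

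Of the Fanconi genes 7 of 10 lay below 0, with a median of -0.11. Fance and Fancc had both haploid values below both diploid values, a share of 20.0% that is near the 20.9% of all features, and 0 had both above. Fancd2, the protein that the core complex marks with ubiquitin, read -1.94 and -1.65 in haploid lines, against -1.73 and -1.19 in diploid lines. The groups overlapped, and the difference was -0.34 ± 0.24 (adjusted p = 0.596), with -0.07 without diploid line 2 and -0.60 without diploid line 1. Fancm, a translocase that brings the core complex to DNA, read -0.96 and -1.78 in haploid lines, against -1.15 and -0.87 in diploid lines. Haploid line 2 was the lowest of the 4 and the groups overlapped. The difference was -0.36 ± 0.29 (adjusted p = 0.641), and 0.05 without haploid line 2. Fance, the core subunit that contacts FANCD2, read 3.60 and 3.68 in haploid lines, against 3.91 and 3.75 in diploid lines. Its difference was -0.19 ± 0.17 (adjusted p = 0.666), and -0.41 on its other probe. Fancc, a core subunit that pairs with Fance, read -1.20 and -1.25 in haploid lines, against -0.98 and -1.14 in diploid lines, a difference of -0.17 ± 0.17 (adjusted p = 0.710). These differences were close in size to their errors, and none of them passed the test.

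The rest of the core complex and the partner of FANCD2 lay around 0. Fancg differed by -0.19 ± 0.34, a value that was 0.29 without diploid line 2 and 0.03 without haploid line 1. Fancb, which is X-linked, differed by -0.05 ± 0.17 and Fanci by -0.03 ± 0.20. Fanca at 0.01 ± 0.20, Fancf at 0.04 ± 0.17 and Fancl, the ubiquitin ligase subunit, at 0.15 ± 0.21 lay above 0, all with overlapping groups. Fancd2 and Fanci form 1 complex, but their 2 differences were not alike in size, and the errors overlap.

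Replicate spread set how many of these values stood clear. The typical gap between the 2 lines of a group was 0.17 for the 43 genes in haploid and also 0.17 in diploid lines, taken as the median. The difference exceeded the gaps of both groups for 17 genes with lower signal (39.5%, against 14.1% of all features) and for 2 with higher signal (against 15.9%). Among the 22 genes with all haploid values lower, haploid line 2 held the lowest value for 14 and haploid line 1 for 8. Diploid line 2 held the highest value for 13 of them and diploid line 1 for 9. No single array was thus the extreme one throughout. The signal at the 75th percentile was 526 and 553 intensity units on the haploid arrays, against 617 and 907 on the diploid arrays, and the share of probes well above background was 53.6% and 59.7% on haploid arrays, against 55.1% and 65.02% on diploid arrays. Diploid line 2 was thus the brightest array, and the part of this in the results was not tested apart from the values without it.

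Dim probes of the list had lower differences than bright ones, and the features as a whole leaned the same way. Signal levels were used here only to sort probes and not to rank the expression of genes. All 18 of the genes whose probes were in the dimmer 50% of features lay below 0, with a median of -0.35, and for 13 of them the groups were apart. Among all 8982 features of that dimmer part the median was -0.06, 56.5% lay below 0 and 26.0% were lower without overlap. Brca1, Chek1, Xrcc2, Brip1 and Atm belong to these 18 genes. Of the 25 brighter genes 16 lay below 0, with a median of -0.05, and 9 were lower without overlap, among them Bard1 and Atr. The brighter features as a whole had a median of 0.08, with 37.0% below 0 and 15.9% lower without overlap. With the features cut into 10 equal classes by signal, the median of all features was -0.17 in the dimmest class and 0.22 in the brightest. Set against the median of all features in their own class, the genes had a median difference of -0.18, with 34 of 43 still below it. The Spearman correlation between signal and difference was 0.62 across the 43 genes and 0.26 across all features, as a description over genes that share the same 4 arrays.

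**Figure D3:**
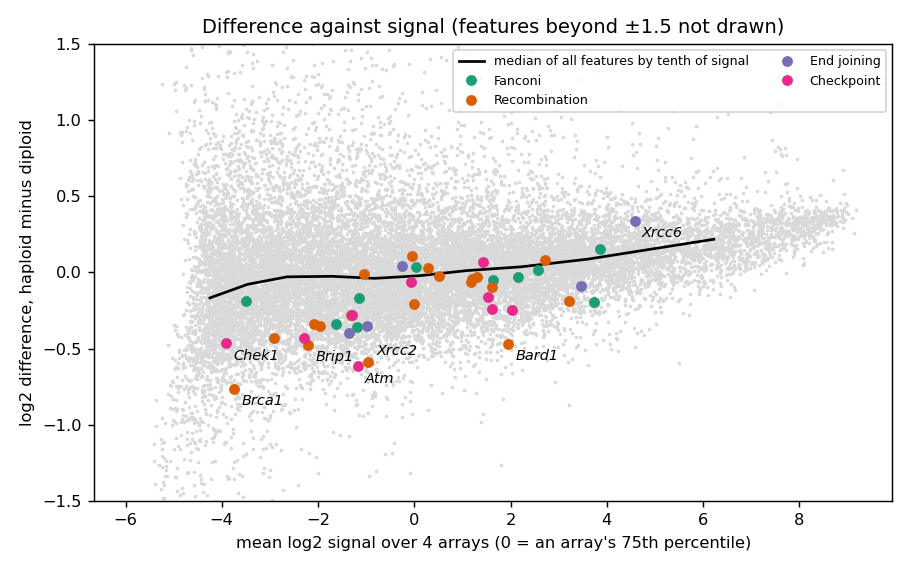
Log2 difference, haploid minus diploid, against mean log2 signal over the 4 arrays. Grey points are all features, coloured points the 43 genes by role, and the line joins the medians of all features in 10 equal classes of signal, from -0.17 to 0.22. Brca1 and Chek1 lie among dim probes, while Xrcc6 lies above the line among bright ones.

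Separate probes of 1 gene gave a check within these arrays. Of 12 genes with several probes 10 had all probes on 1 side of 0. For Atm, Rad54b, Fancl and Wrn the probes differed little. For Palb2, Rad50, Fance and Fancc the dimmer probe lay further below 0 than the brightest one, down to -0.63 in Fancc, whose dimmer probe did not pass the filter. For Xrcc2 and Bard1 the dimmer probes lay nearer to 0. The signs differed for Rad51d, whose other probe gave -0.32, and for Trp53bp1, and in both the other probe did not pass the filter. Probes of 1 gene share RNA and array, so they are no replicates of the comparison.

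**Figure D4:**
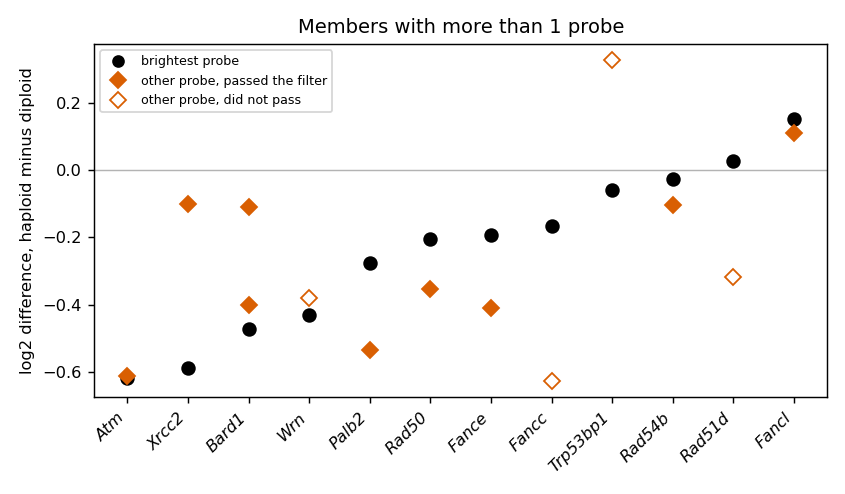
Log2 difference, haploid minus diploid, of every probe for the 12 genes with more than 1 probe. Black circles are the brightest probes, filled diamonds other probes past the filter on background, and open diamonds probes that did not pass it. The 2 probes of Atm lie together at about -0.6, those of Xrcc2 lie apart, and Rad51d and Trp53bp1 have an open diamond across 0 from the circle.

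Of 65 further genes of recombination, crosslink repair, end joining and damage signalling 61 were measured, 38 lay below 0 and the median was -0.08. Both haploid values were lower for 20 (32.8%, against 20.9% of all features) and higher for 3 (4.92%, against 26.0%), and 0 passed the test. By limma 4 of the 61 had an unadjusted p under 0.05 with lower signal, against 4.92% of all features. With higher signal there were 0, against 6.79% of all features. Dna2, a nuclease that trims ends alongside EXO1, read -0.59 and -0.59 in haploid lines, against -0.13 and 0.34 in diploid lines. Its difference of -0.70 ± 0.21 had the smallest adjusted p of the group, 0.299. Etaa1, an activator of ATR, differed by -0.43 ± 0.17 (adjusted p = 0.413) and Dclre1a, a nuclease of crosslink repair, by -0.47 ± 0.19 (adjusted p = 0.419). On the higher side stood Rad18, a ubiquitin ligase of damaged replication forks, at 0.24 ± 0.17 (adjusted p = 0.592). Nhej1, a factor that supports LIG4, lay at 0.32 ± 0.23 and H2afx, the histone that ATM phosphorylates at breaks, at 0.30 ± 0.22.

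Genes of DNA replication, which share the S phase with recombination, were taken as a further list. Of 39 measured S phase genes 14 lay below 0 and the median was 0.08. Both haploid values were lower for 10 of them (25.6%) and higher for 11 (28.2%), shares near the 20.9% and 26.0% of all features. Their probes were brighter, with 26 of 39 in the 2 brightest of the 10 classes of signal, where 5 of the 43 repair genes lay. Set against the median of all features in their own class, the S phase genes had a median of -0.10, with 26 of 39 below it, and the 61 other repair genes a median of -0.12, with 46 below it. The ESC markers had a median of 0.01 over 15 of 15 measured genes, and their summed signal, in units of the 75th percentile of the array, was 292 and 281 in haploid lines, against 278 and 250 in diploid lines. Set against their own classes, the ESC markers had a median of -0.11, with 10 of 15 below the class median. Both haploid values were lower for 33.3% of the ESC markers and higher for 26.7%, against 20.9% and 26.0% of all features. The difference between any of these groups and the repair genes was not tested.

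Markers of other cell types are given beside these results, and 0 of them passed the test (smallest adjusted p = 0.0781). Of 20 fibroblast markers 16 were measured, with 11 above 0 and a median of 0.43, and Pdgfra, Pdgfrb, Prrx1 and Fap did not pass the filter on background. Their summed signal was 15.7 and 12.4 in haploid lines, against 9.99 and 7.40 in diploid lines. Of 10 trophectoderm markers 6 were measured, with 4 above 0 and a median of 0.71, and Cdx2, Elf5, Hand1 and Plac1 did not pass. Their summed signal was 17.95 and 14.6 in haploid lines, against 13.1 and 13.6 in diploid lines. Of 10 primitive endoderm markers 6 were measured, with 4 above 0 and a median of 0.06, and Sox17, Sox7, Dab2 and Foxa2 did not pass. Their summed signal was 124 and 126 in haploid lines, against 97.5 and 82.1 in diploid lines. Sparc made up most of that sum, with 119 and 121 in haploid lines, against 92.8 and 77.7 in diploid lines, whereas Gata4 and Gata6 differed by -0.77 and -0.96 without overlap. Gata4 and Gata6 were each well above background on 1 haploid array and 2 diploid arrays. They thus passed the filter only through the diploid group, where they were higher. Both were in the dimmest of the 10 classes of signal, near the floor. The part of these markers in the lower values of the repair genes was not tested.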

How the data were processed

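Gene expression was measured on 4 one-colour Agilent arrays, 2 of haploid and 2 of diploid parthenogenetic mouse ESCs. The deposited scanner files came, per the file headers, from Agilent Feature Extraction 11.0.1.1 and give each spot's processed signal as a linear intensity after background correction. The value table that the authors deposited also holds linear intensity values, and no source used here gives its normalization. Its column medians were 28.4 and 28.3 for haploid and 28.4 and 28.3 for diploid arrays, and it served as an alternative. All 4 arrays were on 1 slide.

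From these files, control spots and outlier spots were dropped (121 and 142 on haploid, 126 and 168 on diploid arrays, of 43020), repeated spots were averaged, and log2 of the deposited intensity was taken minus the 75th percentile of the array. No spot was saturated. Of 39409 probes 26043 (66.1%) were named by matching accessions to RefSeq (GRCm38.p6). The array design names mm9, so only promoter windows carry coordinates. The filter kept probes well above background on both arrays of one or other group, and a gene was read from its brightest probe by the mean over arrays. Groups were compared with limma 3.58.1 in R 4.3.3 (lmFit and eBayes, two-sided, Benjamini-Hochberg over 17963 features). The script was tested on simulated data. Python 3.11.15, pandas 2.3.3, numpy 2.4.6 and scipy 1.17.1 were also used. Samples of a group are separate lines and experiments per the labels, so the p-values measure how these samples vary, which may be in part technical. The number of arrays, 2 per group, limits the precision.

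The genes, the other lists and the search words were chosen with earlier results of these data known, so lists are described by counts and medians with no test. Every gene of the list could be named. Values per sample are given for the 4 genes with the smallest unadjusted p in each role, and for other repair genes the 3 in each direction with the smallest p are named. The alternatives were another background correction (normexp, offset 50), quantile, cyclic loess or median scaling, the value table, other filters, the mean over probes, limma's robust and trended prior, the replicate number as a block, and leaving out each array. The files hold no mean signal, so normexp used the median signal and median local background, which departs from the plan.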

Additional observations from a re-analysis of the deposited data

How the results depend on the processing

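The count of the 43 genes past the adjusted threshold in limma was 0 in every alternative run, with 6 lower and 0 higher at an unadjusted p under 0.05 as reported. The count over all features, 20 as reported, was 0 with normexp on all spots, 140 when normexp left out 2 spots of high local background, 7 with quantile scaling, 0 with cyclic loess, 4 with the value table, 0 without a filter, 82 with a filter on all arrays and 425 with trend and robust fitting (72 lower, 353 higher). Leaving out 1 array gave 0 to 294 calls: 226 without haploid line 1, 294 without haploid line 2 and 0 without either diploid line. There the lone array of a group was assumed to vary as the other group did. The labels give both groups the numbers 1 and 2, and deviations of same-numbered lines correlated at 0.05 across features. A low correlation cannot show whether same-numbered lines share an origin, since noise of the arrays also lowers it, so pairing stayed unknown. A replicate block gave 2 calls, both lower. A median was taken as moved beyond the typical SD between lines (0.13 for the 43 genes), and a sign change of a gene was counted beyond 1 SE. Normexp on all spots, where 2 spots of high local background on diploid line 2 entered, moved the median of all features to -0.08 and gave -0.0133 for the 43 genes (against -0.19), 0.0628 for Fanconi, 0.0331 for end joining, 0.0885 for the other repair genes, -0.0168 for checkpoint genes and 14 genes lower without overlap (against 22). It also turned Fance to 0.14, Exo1 to 0.18, Atr to 0.0129 and Topbp1 to 0.0204. In that setting 22 of the 43 genes lay below 0, against 54.2% of all features. The median of the 43 genes lay 0.0631 above that of all features there, whereas it lay 0.21 below as reported. The share of all features lower without overlap was not computed in that setting. In every other setting the median of the 43 genes lay between -0.20 and -0.14, and recombination genes kept theirs within the SD in all of them. Without diploid line 1 the checkpoint median was -0.40, and without diploid line 2 it was -0.10. The 2 genes higher without overlap became 3 to 9 without 1 array: 9 without haploid line 1, 3 without haploid line 2, 7 without diploid line 1 and 5 without diploid line 2. In the same order the 22 genes lower without overlap became 27, 28, 28 and 27. With 1 array left in a group the values lie apart more easily, so higher counts come in part from the smaller group. The shares of all features were not computed there. Fancg ranged from -0.66 to 0.29 and Fancm from -0.77 to 0.0520. Over 645 values in 15 settings the sign held in 600, and 39 of the other 45 lay within 1 SE of 0. These 600 include settings that could not change a sign. The other filters kept the same probes, and the robust and trended prior and the replicate block left each difference as reported. The mean over probes could change only genes with several probes. The scanner software marked all 43 genes as well above background on each array, and Chek1, a dim probe, differed by only -0.04 when normexp left out the 2 spots.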

Other observations

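The 43 genes lie on 16 chromosomes. Chromosome 9 carries 6 of them (Atm, Atr, Atrip, Chek1, Topbp1 and Mre11a). Of these 5 lay below 0, each with both haploid values below both diploid values, an order seen in 20.9% of all features. Those 5 are checkpoint genes already counted in that role, so the count is no separate result about the chromosome. The median difference of the 6 genes was -0.24, against 0.01 over the 725 named genes of chromosome 9. Chromosomes 4 and 11 carry 5 each, with medians of -0.19 and -0.21 against 0.03 and 0.03 over their named genes. The length of a gene in the genome and its difference had a Spearman correlation of -0.19 across the 43 genes and -0.18 across all 13041 named genes, as a description. The word TTTGAA on either strand, known from the CHR element of cell cycle genes, stood in 5.26% of the promoter entries of the list and in 17.9% of all promoters. The measured genes that held it were Bard1 and Rad51b, with a median of -0.41.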
